A study of Homo sapiens with 9 samples.

Results

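The genes described here carry out antigen presentation by major histocompatibility complex (MHC) class I molecules. They are 9 genes: the heavy chains HLA-B, HLA-C, HLA-E and HLA-F, the light chain B2M, the peptide transporter subunits TAP1 and TAP2, the loading factor TAPBP and the regulator NLRC5. They were matched by symbol to the deposited count table, make up 9 of its 19569 genes, and all 9 passed the filter on low counts. The set was chosen by name, from measured values of these same libraries, with the changes between the time groups known. The changes of the 9 genes are therefore given as a description, with fold changes and errors and without p-values. Where the 9 genes are said to be called or not, the word gives only their side of the threshold used for all genes, and it supports nothing about them.

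The study's mRNA-seq data comprise 9 libraries of Jurkat Clone E6-1, a human T lymphoblast cell line established from a leukaemia. The 3 groups of 3 libraries were non-activated control cells, called 0 h, and cells after 5 h or 12 h of activation. Activation combined anti-CD3 antibody coated onto the plate at 10 µg/mL, which engages the T-cell receptor complex, with anti-CD28 antibody, which engages its costimulatory receptor, in the medium at 5 µg/mL. No library came from cells kept 5 h or 12 h without the antibodies, so effects of activation and of culture time or handling cannot be told apart. The libraries of a group are described as biological replicates, with no word on separate cultures, so errors and p-values cover only library-to-library spread, and part of that may be technical. In bulk RNA, fewer cells of a type and less RNA per cell cannot be told apart.

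Class I molecules show peptides from proteins made inside the cell to CD8 T cells, and some also engage receptors of natural killer cells. Peptides cut by the proteasome are pumped into the endoplasmic reticulum by the TAP1 and TAP2 heterodimer. There tapasin, the product of TAPBP, holds the transporter close to an empty heavy chain paired with beta-2-microglobulin. Interferons, NF-κB and the transactivator NLRC5 are known to raise transcription of these genes through short elements in their promoters.

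Library totals ran from 4222258 to 9359187 counts, the lowest being 12 h replicate 1. Levels are given as CPM (counts scaled to 1000000 per library), adjusted by edgeR's trimmed mean of M values (TMM). Of the 12036 genes tested, 24.9% were called higher and 24.8% lower at 5 h than at 0 h, at a Benjamini-Hochberg adjusted p under 0.05. At 12 h against 0 h, 26.3% were called higher and 24.8% lower, and at 12 h against 5 h, 18.1% higher and 17.9% lower. The summed level of 10 T-cell markers ran from 5207 to 6102 CPM at 0 h, from 5369 to 6157 at 5 h and from 5156 to 5957 at 12 h. Single markers moved within this sum, with 2 of 10 called higher at 5 h (CD5 and CD28) and 4 lower (CD3E, CD3G, CD7 and CD4). Of 5 B-cell markers, CD79A was the one above 4 counts in any library, with a mean of 176.7 CPM at 0 h, 101.2 at 5 h and 142.1 at 12 h. Of the defining markers of other cell types, HBB, COL1A2 and EPCAM had 0 counts in all 9 libraries. The summed level of 5 myeloid markers ran from 6.13 to 9.56 CPM at 0 h, from 7.98 to 11.9 at 5 h and from 10.0 to 12.0 at 12 h, of which CD68 gave means of 5.63, 7.61 and 8.93. The summed level of 3 natural killer cell markers ran from 4.63 to 5.49 at 0 h, from 8.10 to 15.5 at 5 h and from 9.69 to 11.2 at 12 h, nearly all from KLRD1 (means of 4.86, 11.2 and 10.1), while NCAM1 had 1 to 8 counts and NCR1 at most 1 count per library. The part of these markers in the results below was not tested.

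Promoter windows of RefSeq (GRCh38.p14), from 250 bases before to 50 bases after an annotated start, were held for 7 of the 9 genes, namely HLA-B, HLA-C, HLA-F, B2M, TAP1 with 2 starts, TAP2 and TAPBP. They were searched on both strands for the interferon-stimulated response element (ISRE; GAAA, 2 bases of any kind, GAAA), for the NF-κB element (κB), for the gamma-activated site TTCNNNGAA, for the CRE half-site TGACG and for the CCAAT box, read as ATTGG. The stretches of 30 bases around κB and ISRE matches before the start are shown for 5 of these genes, chosen with their changes known. TAP2 and TAPBP also held matches and are not printed. TAPBP held both elements, as TAP1 and B2M did, and the 5 h changes of these genes were 1.41-fold, 3.89-fold and 1.46-fold. Any link between the elements and the size of the change was not tested. Capitals mark κB and ISRE matches, and each stretch reads 5′ to 3′ on the strand of its gene.
HLA-B, κB, chr6:31357336-31357365, minus strand: cgcagcgttGGGGATTCCCCactcccctga
HLA-C, κB, chr6:31272245-31272274, minus strand: cgccgcgttgGGGATTCTCCactcccctga
HLA-F, ISRE on the opposite strand, chr6:29723268-29723297, plus strand: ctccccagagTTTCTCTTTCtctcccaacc
B2M, overlapping ISREs and κB, chr15:44711373-44711402, plus strand: GAAAAGGAAACTGAAAacgGGAAAGTCCCt
TAP1, overlapping ISREs on the opposite strand, chr6:32853816-32853845, minus strand: cggccgcTTTCGATTTCGCTTTCccctaaa
TAP1, κB, chr6:32853757-32853786, minus strand: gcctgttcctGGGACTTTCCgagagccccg

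At HLA-B, 11 bases held overlapping κB matches on both strands, the first beginning 177 bases before the start, whereas HLA-C held 1 match, 172 bases before its start. Neither window held the exact ISRE letters that were searched. In B2M 2 overlapping ISREs, from 144 bases before the start, lay next to a κB match on the opposite strand. TAP1 held 2 overlapping ISREs from 134 bases and a κB match 72 bases before the first of its starts. TAP2 had 1 ISRE 58 bases before its start, and TAPBP had a κB match at 56 bases and 2 overlapping ISREs from 20 bases before its start. In GENCODE, both TAP1 stretches overlap TAP1 exons, the HLA-F stretch overlaps exons of HLA-F and of AL645939.1 on the other strand, and the HLA-B stretch overlaps an exon of AL671883.2 on the other strand. The HLA-C and B2M stretches overlap no annotated exon. Of the 8 windows of these 7 genes, 5 held an ISRE, 5 a κB match and 1 a gamma-activated site (the second TAP1 start). Of all 35116 windows in the table, 3.57%, 11.3% and 7.66% did. The CRE half-site followed by ATTGG after 10 to 30 bases, the arrangement of the element that NLRC5 is known to act through, was in the windows of HLA-B, HLA-C and B2M and in 0.775% of all windows. A match describes the letters only and does not show binding, and no test of these shares was made. A missing match does not show that an element is absent, since only exact letters were searched.

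**Figure D1:**
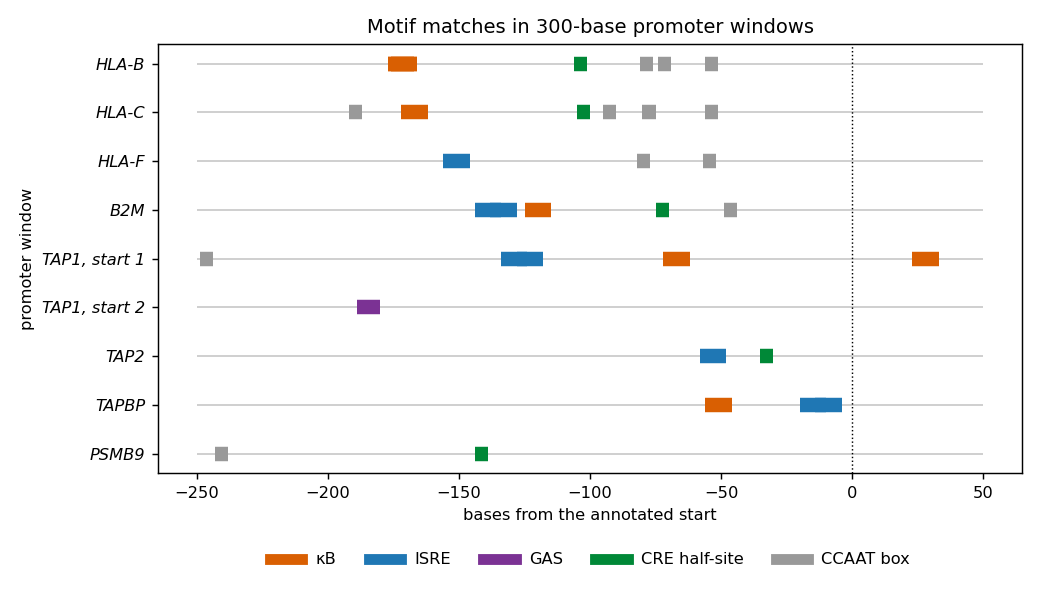
Positions of motif matches in promoter windows of 7 class I genes and of PSMB9. The x axis is the distance in bases from the annotated start (dotted line), each row is 1 window (TAP1 has 2), and coloured blocks are matches on either strand. The κB and CRE half-site blocks of HLA-B and HLA-C lie at nearly the same distances, and ISRE blocks are in the rows of HLA-F, B2M, TAP1 start 1, TAP2 and TAPBP.

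All 9 genes were called higher at 5 h and again at 12 h, and none was called lower than at 0 h. This count is set beside the 24.9% and 26.3% of all genes called higher, and since these contrasts guided the choice of the genes, nothing is read from it. The median log2 fold change of the 9 genes was 1.05 at 5 h and 1.66 at 12 h, while the median of all tested genes was 0.00 in both. TMM scaling assumes that most genes do not change, which itself keeps the median of all genes near 0.00. A change in total RNA per cell would therefore not show. The 2 contrasts share the same 0 h libraries. From 5 h to 12 h, 5 genes were called higher (HLA-B, HLA-C, HLA-F, B2M and TAP2), NLRC5 was called lower, and HLA-E, TAP1 and TAPBP were not called. Over all genes, 18.1% were called higher and 17.9% lower in this contrast. It too was known when the genes were chosen, so nothing is read from these counts. The summed share of the 9 genes in each library's counts was 0.375% ± 0.0462 (SD, n = 3) at 0 h, and it was 0.604% ± 0.0420 at 5 h and 0.755% ± 0.0404 at 12 h.

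**Figure D2:**
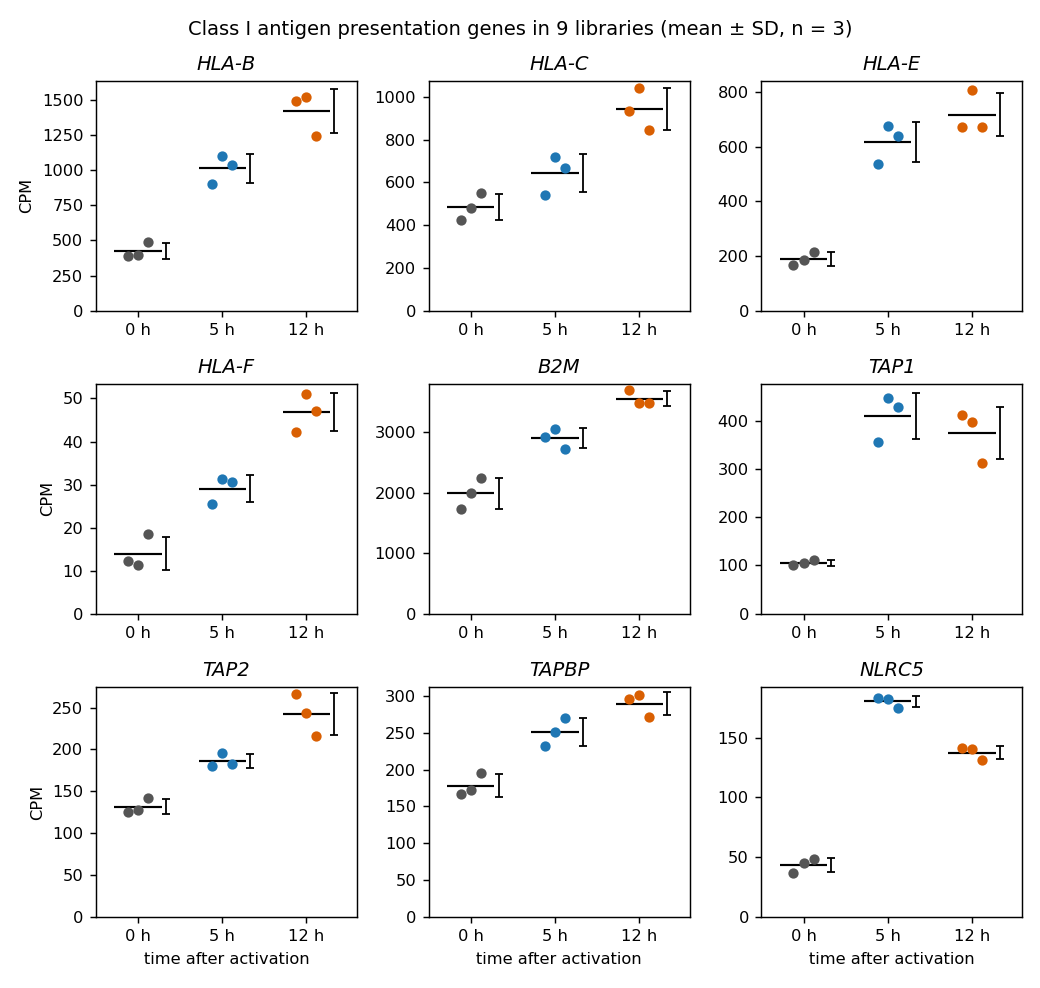
CPM (y axis, linear, from 0) of each of the 9 genes at 0 h, 5 h and 12 h (x axis). Points are libraries, horizontal lines are means and vertical bars are ± SD (n = 3). The 5 h and 12 h points lie above all 0 h points in every panel except HLA-C, where the lowest 5 h library, at 543.1 CPM, was under the highest 0 h library, at 549.1 CPM. The genes were chosen with these changes known, and the share of all genes with such separation was not counted.

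HLA-B, a classical heavy chain (ENSG00000234745, transcript at chr6:31353872-31357187, GRCh38), had 386.5, 398.8 and 487.4 CPM in the 3 libraries at 0 h. It had 900.2, 1104 and 1035 CPM at 5 h and 1493, 1526 and 1241 CPM at 12 h. The 3 groups did not overlap. The log2 fold change was 1.26 ± 0.111 (SE) at 5 h, or 2.39-fold, and 1.74 ± 0.112 at 12 h, or 3.35-fold. From 5 h to 12 h HLA-B rose 1.40-fold (log2 0.49 ± 0.109).

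HLA-C, the classical heavy chain that also serves as a main ligand of killer-cell immunoglobulin-like receptors (ENSG00000204525, chr6:31268749-31272130), had 424.7, 480.3 and 549.1 CPM at 0 h. At 5 h it had 543.1, 719.3 and 669.2 CPM, and at 12 h 935.9, 1043 and 847.2 CPM. The 0 h and 5 h groups overlapped by 1 library each, and the 12 h libraries lay above both. HLA-C was 1.33-fold higher at 5 h (log2 0.41 ± 0.114) and 1.94-fold higher at 12 h (0.96 ± 0.114). It had the smallest 5 h change of the 9 genes, and its later step of 0.55 ± 0.114 from 5 h to 12 h had a larger estimate than its first, with no test of the difference.

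HLA-E, a nonclassical heavy chain that shows leader peptides of other class I chains to CD94/NKG2 receptors (ENSG00000204592, chr6:30489467-30494205), had 167.1, 185.6 and 215.6 CPM at 0 h. It had 536.1, 675.0 and 640.3 CPM at 5 h and 671.6, 809.0 and 674.1 CPM at 12 h. All activated libraries lay above all 0 h libraries, while the 5 h and 12 h groups overlapped. The increase was 3.26-fold at 5 h (log2 1.70 ± 0.113) and 3.79-fold at 12 h (1.92 ± 0.114), the largest 12 h estimate of the 9 genes. The difference of 0.22 ± 0.109 from 5 h to 12 h was not called.

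HLA-F, a nonclassical heavy chain of low abundance (ENSG00000204642, chr6:29722775-29738528), had 12.26, 11.20 and 18.40 CPM at 0 h, 25.38, 31.18 and 30.67 CPM at 5 h and 42.18, 51.07 and 47.18 CPM at 12 h. The 3 groups were separate. The log2 fold changes were 1.05 ± 0.161 at 5 h and 1.74 ± 0.156 at 12 h, or 2.07-fold and 3.35-fold, with the largest standard errors of the 9 genes. HLA-F rose a further 1.62-fold between 5 h and 12 h (log2 0.70 ± 0.146).

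Heavy-chain genes resemble each other, and the assignment of their reads depends on the aligner and the alleles, neither of which is given in the sources used here. In the reference transcripts, none of the 75-base windows of HLA-B or HLA-F was identical to a window of any other annotated HLA gene. The share was 1.98% for HLA-C and 2.02% for HLA-E, and at 50 bases the 4 genes' shares ran from 1.51% to 6.79%. The read length was not given, and the GENCODE model of HLA-B includes a long transcript that crosses HLA-C on the same strand by 2640 bases. Summed over HLA-B, HLA-C, HLA-E and HLA-F, which leaves out how reads were split among these 4 genes but not with others, the level was 990.6, 1076 and 1270.5 CPM at 0 h. It was 2005, 2530.0 and 2375 CPM at 5 h and 3143, 3428.5 and 2809 CPM at 12 h, in 3 groups without overlap. The log2 fold change of the sum was 1.05 ± 0.113 at 5 h and 1.49 ± 0.114 at 12 h, and 0.44 ± 0.111 from 5 h to 12 h.

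Ratios between heavy chains of the same library, which do not depend on its depth, differed between the 0 h and the activated libraries. The ratio of HLA-B to HLA-C counts was 0.910, 0.830 and 0.888 in the 0 h libraries. It was 1.66, 1.54 and 1.55 at 5 h and 1.60, 1.46 and 1.46 at 12 h. HLA-C thus had more counts than HLA-B in each non-activated library, and fewer in each activated one. The ratio of HLA-E to HLA-C went from 0.386 to 0.394 at 0 h to 0.938 to 0.987 at 5 h and lay between them, at 0.718 to 0.796, at 12 h.

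**Figure D3:**
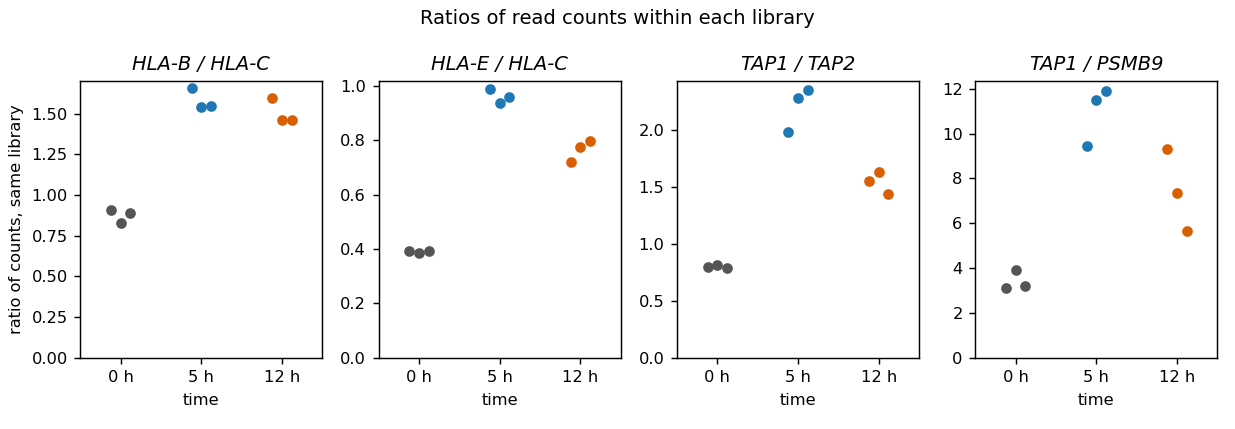
Ratios of read counts of 2 genes in the same library (y axis, linear, from 0) at 0 h, 5 h and 12 h (x axis). Each point is 1 library. In the 4 panels the 0 h points lie below all activated points. HLA-E to HLA-C, TAP1 to TAP2 and TAP1 to PSMB9 are highest at 5 h, and the 5 h and 12 h points of HLA-B to HLA-C overlap.

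B2M, the light chain shared by all class I molecules (ENSG00000166710, chr15:44711487-44718877), had the highest level per kilobase of the 9 genes. Its libraries had 1730, 1989 and 2239 CPM at 0 h, 2926, 3057 and 2720 CPM at 5 h and 3693, 3480 and 3484 CPM at 12 h. The groups did not overlap. The change was 1.46-fold at 5 h (log2 0.55 ± 0.100) and 1.79-fold at 12 h (0.84 ± 0.100), and 1.22-fold between 5 h and 12 h (0.29 ± 0.100). This last step was lost without 5 h replicate 1 (log2 0.30, no longer called), without 5 h replicate 3 (0.25) and with limma on the deposited log2 values (0.29). Counts of B2M per summed count of these 4 heavy chains were 1.79 ± 0.0554 at 0 h, 1.27 ± 0.166 at 5 h and 1.14 ± 0.116 at 12 h (SD, n = 3). The 0 h values, from 1.75 to 1.85, lay above the highest activated library, at 1.46.

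TAP1, 1 subunit of the peptide transporter (ENSG00000168394, chr6:32845209-32853978), had 100.1, 104.2 and 111.7 CPM at 0 h. It had 356.5, 446.6 and 427.8 CPM at 5 h and 412.5, 397.2 and 312.3 CPM at 12 h. Every activated library was above every 0 h library, and the 5 h and 12 h libraries overlapped. TAP1 was 3.89-fold higher at 5 h (log2 1.96 ± 0.112) and 3.55-fold higher at 12 h (1.83 ± 0.112). The difference between 12 h and 5 h, -0.13 ± 0.106, was not called.

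TAP2, the partner subunit (ENSG00000204267, chr6:32821833-32838780), had 125.1, 127.5 and 141.8 CPM at 0 h, 179.7, 196.0 and 182.3 CPM at 5 h and 266.5, 243.4 and 216.4 CPM at 12 h. The 3 groups followed in steps without overlap, by 1.41-fold at 5 h (log2 0.50 ± 0.093) and 1.84-fold at 12 h (0.88 ± 0.093). TAP1 counts per TAP2 count were 0.800, 0.817 and 0.788 at 0 h, 1.98, 2.28 and 2.35 at 5 h and 1.55, 1.63 and 1.44 at 12 h. The subunits are known to work as a heterodimer, and their transcripts changed by unequal factors in the same libraries.

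TAP1 and PSMB9, a catalytic subunit of the immunoproteasome, are neighbours that run in opposite directions. PSMB9 had 31.28 ± 4.25 CPM at 0 h, 37.42 ± 1.47 at 5 h and 51.22 ± 5.95 at 12 h. Its 5 h difference of log2 0.25 ± 0.122 did not pass the test (edgeR adjusted p = 0.0913), and it rose by 0.72 ± 0.120 at 12 h (edgeR adjusted p = 4.86e-05). TAP1 counts per PSMB9 count ran from 3.09 to 3.92 at 0 h, from 9.46 to 11.9 at 5 h and from 5.66 to 9.30 at 12 h. PSMB8, the neighbouring subunit gene next to TAP2, had 114.3 ± 12.1, 120.9 ± 3.13 and 152.0 ± 11.8 CPM. The GENCODE model of PSMB9 covers all 8770 bases of TAP1 on the other strand. The use of strand in counting is not given in the sources used here, so reads of the 2 genes may not have been separable there.

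TAPBP, the gene of tapasin (ENSG00000231925, chr6:33299694-33314387), had 166.8, 171.7 and 195.7 CPM at 0 h, 231.6, 251.2 and 270.4 CPM at 5 h and 295.2, 300.8 and 271.8 CPM at 12 h. The activated libraries were above all 0 h libraries. The increase was 1.41-fold at 5 h (log2 0.50 ± 0.092) and 1.62-fold at 12 h (0.70 ± 0.092), the smallest 12 h change of the 9 genes. The step of 0.20 ± 0.091 from 5 h to 12 h was not called, although its lowest 12 h library lay just above its highest 5 h library.

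NLRC5, a nuclear NOD-like protein that binds the factors on class I promoters and raises their transcription (ENSG00000140853, chr16:56989485-57083531), had 36.77, 45.39 and 48.12 CPM at 0 h. It had 183.2, 182.6 and 175.1 CPM at 5 h and 141.2, 140.3 and 131.0 CPM at 12 h. The 3 groups were apart, and the 5 h libraries were highest. NLRC5 was 4.15-fold higher at 5 h (log2 2.05 ± 0.100), the largest 5 h change of the 9 genes, and 3.16-fold higher at 12 h (1.66 ± 0.100). From 5 h to 12 h it fell by 0.39 ± 0.093 on the log2 scale, the 1 gene of the set called lower. In GENCODE an antisense gene overlaps NLRC5, HLA-F-AS1 overlaps HLA-F on the opposite strand by 11928 bases, and AL669918.1 covers all 16948 bases of TAP2 on the same strand. Without the strand and annotation used in counting, reads of these overlapping genes could not be told apart.

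**Figure D4:**
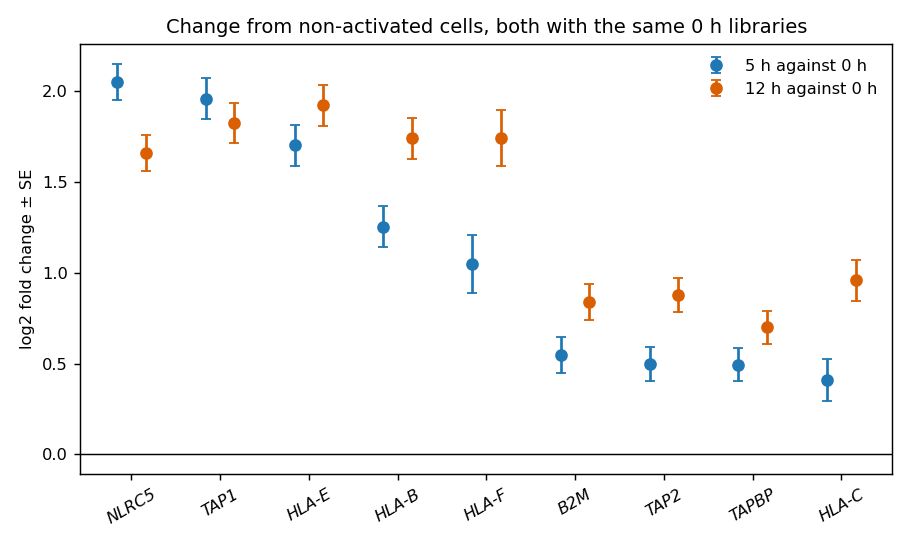
Log2 fold change ± SE (y axis) of the 9 genes (x axis, ordered by the 5 h change) at 5 h and 12 h, each against the same 0 h libraries. NLRC5 and TAP1 have the highest 5 h points, at 2.05 and 1.96, with lower 12 h points. The other 7 genes have their higher point at 12 h.

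The estimates fell into 2 shapes over time. NLRC5 and TAP1 had their highest group mean at 5 h, with 5 h and 12 h libraries that overlapped for TAP1 and not for NLRC5. HLA-B, HLA-C, HLA-E, HLA-F, B2M, TAP2 and TAPBP had their highest group mean at 12 h. The 5 h and 12 h libraries of HLA-E overlapped. How many of all tested genes had separate 5 h and 12 h libraries was not counted, so nothing about the set is read from overlap or its absence. Whether the time courses of any pair of genes differed was not tested. Replicate 3 was the highest 0 h library for all 9 genes, against 35.1% of all tested genes, and replicate 2 was the highest 5 h library for 7 of 9, against 31.1%. At 12 h replicate 1 was highest for 4 genes, replicate 2 for 5 and replicate 3 for 0, against 35.3%, 33.9% and 30.8% of all tested genes. Of the 10 T-cell markers, 9 also had their highest 0 h level in replicate 3 and 1 in replicate 1. Leaving out 1 library at a time moved the 5 h change of HLA-C between 0.32 and 0.52 and that of HLA-F between 0.91 and 1.31, the widest range among the 9 genes, and all 9 were still called higher at both times.

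Levels of different genes were compared as CPM per kilobase of the principal GENCODE transcript. At 0 h the order of mean levels was B2M at 1160 CPM per kilobase, HLA-C at 316, HLA-B at 274, TAPBP at 94.3, HLA-E at 72.8, TAP2 at 52.7, TAP1 at 35.6, HLA-F at 8.53 and NLRC5 at 6.37. Libraries of HLA-C and HLA-B overlapped on this scale, as did those of HLA-F and NLRC5. At 5 h HLA-B, at 655 CPM per kilobase, stood above HLA-C, at 419, without overlap. HLA-E, at 237, and TAP1, at 139, had then passed TAPBP, at 133, although TAP1 and TAPBP overlapped. TAP2 followed at 74.5, and NLRC5, at 26.4, stood above HLA-F, at 17.8. At 12 h the order was B2M at 2080, HLA-B at 918, HLA-C at 613, HLA-E at 276, TAPBP at 153, TAP1 at 126, TAP2 at 96.9, HLA-F at 28.6 and NLRC5 at 20.2, and only TAP1 and TAP2 overlapped as neighbours.

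For HLA-B, TAP1 and NLRC5, tested genes outside the set with a similar profile were found by the root-mean-square distance of log2 CPM over the 9 libraries, each gene centred on its own mean. These distances rest on the same libraries and carry no test. Close to HLA-B lay P2RX5, at 0.117 log2 units, SLC3A2 at 0.136 and CD84 at 0.138. The closest to TAP1 were IRF9, at 0.15, CD40LG at 0.156 and TSPAN5 at 0.172. NLRC5 lay closest to CD40LG, at 0.107, then to GBP1, an interferon-inducible GTPase, at 0.113 and to GLDC at 0.116. CD40LG had mean levels of 28.85 CPM at 0 h, 118.1 at 5 h and 93.05 at 12 h, and GBP1 of 51.54, 228.7 and 179.9.

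The other genes of the pathway were tested as 7 lists with 72 genes, of which 66 could be tested. At 5 h 22 were called higher and 16 lower, at 12 h 22 higher and 17 lower, and from 5 h to 12 h 10 higher and 15 lower. Shares called over all 12036 genes, against which each list count below is to be read, were 24.9% higher and 24.8% lower at 5 h, 26.3% and 24.8% at 12 h, and 18.1% and 17.9% from 5 h to 12 h. The counts called lower in the 66 genes at 5 h and at 12 h against 0 h were close to these shares. Of 11 other heavy chains and class I-like chains that pair with B2M or resemble them, 1 rose and 6 fell at 5 h, with a median log2 change of -0.33. The lipid-presenting CD1C rose by 0.48 ± 0.107 (edgeR quasi-likelihood adjusted p = 0.000793). FCGRT, the neonatal Fc receptor, fell from 62.80 ± 10.8 to 26.54 ± 7.30 CPM at 5 h (log2 -1.24 ± 0.170, edgeR adjusted p = 4.44e-06), and CD1D and CD1A fell by 0.93 and 0.82. HLA-G, at 3.18 ± 1.57 CPM at 0 h and 3.63 ± 1.02 at 5 h, did not pass the test (edgeR adjusted p = 0.69). At 12 h 2 rose and 6 fell, with MICA, a stress ligand, joining those higher (log2 0.92 ± 0.247, edgeR adjusted p = 0.00402).

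Of 14 proteasome and peptidase genes that make or trim the peptides, 1 rose and 4 fell at 5 h, and 4 rose and 1 fell at 12 h, with medians of 0.05 and 0.15. The larger of these counts, 4 of 14, is near the shares of 24.8% lower and 26.3% higher over all genes. NPEPPS, a cytosolic aminopeptidase, rose at 5 h by 0.53 ± 0.102 (edgeR adjusted p = 0.000244). LNPEP and ERAP2, which trim peptides in endosomes and in the endoplasmic reticulum, fell at 5 h by 0.79 and 0.53, and rose again from 5 h to 12 h by 0.58 and 0.70. The immunoproteasome subunit PSMB10 fell at 5 h by 0.34 ± 0.122 (edgeR adjusted p = 0.0245). The genes higher at 12 h were PSMB9, PSMB8, NPEPPS and PSME1, and the gene lower was PSME3, a nuclear proteasome activator (log2 -0.57 ± 0.096, edgeR adjusted p = 4.75e-05).

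Of 7 genes of class I folding and quality control, 2 rose and 3 fell at 5 h, and 1 rose and 1 fell at 12 h. TAPBPL, which encodes the tapasin-like peptide editor TAPBPR, had 22.10 ± 4.64 CPM at 0 h, 38.23 ± 3.78 at 5 h and 39.77 ± 8.60 at 12 h, an increase of log2 0.80 ± 0.160 at 5 h (edgeR adjusted p = 0.000338). CALR, the calreticulin of the loading complex, fell from 1536 ± 177 to 1106 ± 164 and 875.4 ± 96.2 CPM (edgeR adjusted p = 0.00185 at 5 h and 7.19e-06 at 12 h). PDIA3, the oxidoreductase ERp57 of the same complex, rose at 5 h by 0.49 ± 0.099 (edgeR adjusted p = 0.000399) and at 12 h stood 0.11 ± 0.100 above 0 h (edgeR adjusted p = 0.371).

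Of 16 transcriptional regulators, 8 rose and 2 fell at 5 h, 5 rose and 6 fell at 12 h, and 1 rose and 6 fell from 5 h to 12 h. Over all genes 24.9% rose at 5 h and 26.3% at 12 h, and 5 of 16 is near the latter. NFKB1, which encodes the p50 precursor, had 74.57 ± 6.71, 359.7 ± 11.3 and 179.0 ± 5.92 CPM, a rise of log2 2.27 ± 0.090 at 5 h (edgeR adjusted p = 1.81e-14). IRF1 had 190.2 ± 5.31, 426.7 ± 23.1 and 209.8 ± 17.1 CPM, and its 12 h difference of 0.14 ± 0.088 did not pass the test (edgeR adjusted p = 0.176). RFX5, a subunit of the RFX complex to which NLRC5 binds, rose by 0.59 ± 0.082 at 5 h and 0.60 ± 0.082 at 12 h. The other RFX subunits did not follow it: RFXAP fell by 0.48 ± 0.143 at 5 h and 0.41 ± 0.144 at 12 h (edgeR adjusted p = 0.00925 and 0.0204), and RFXANK fell by 0.36 ± 0.131 at 12 h (edgeR adjusted p = 0.027). NFYB, a CCAAT-binding subunit, fell by 0.67 and 0.61. CIITA, the class II counterpart of NLRC5, had 7.18 ± 1.71, 8.61 ± 1.27 and 9.395 ± 2.20 CPM and was not called at any time.

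Of 10 interferon ligand, receptor and signalling genes, 8 rose and none fell at 5 h, and 8 rose and 1 fell at 12 h, with medians of 0.81 and 0.99. IFNG, the gene of interferon gamma, had 1, 0 and 2 counts in the 0 h libraries, 95, 127 and 95 counts at 5 h and 11, 15 and 18 counts at 12 h. SOCS1, a feedback inhibitor of JAK kinases, had 4.66 ± 0.0817, 38.10 ± 3.52 and 9.38 ± 0.590 CPM, and JAK2 had 19.67 ± 3.64, 63.92 ± 10.4 and 55.35 ± 6.94 CPM. IRF9, the STAT2 partner, rose by 1.94 ± 0.133 at 5 h (edgeR adjusted p = 1.6e-10). IFNGR2, a chain of the interferon gamma receptor, fell at 12 h by 0.59 ± 0.149 (edgeR adjusted p = 0.00261).

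Of 4 tested genes of class I surface turnover, 1 rose and 1 fell at 5 h (SUSD6 and MARCHF9), and none rose and 2 fell at 12 h (TMEM127 and WWP2). Of 9 MHC class II genes, 4 could be tested, of which 1 rose at 5 h and 2 at 12 h. HLA-DQB1 had 1.63 ± 0.308 CPM at 0 h and 3.47 ± 0.406 at 5 h (edgeR adjusted p = 0.00949), and HLA-DRB1 had 2.67 ± 0.451 at 0 h and 5.41 ± 1.10 at 12 h (edgeR adjusted p = 0.00995). HLA-DRA, the alpha chain of HLA-DR, had 0 counts in the 6 libraries of 0 h and 12 h and 0, 3 and 1 counts at 5 h. CD74, the class II invariant chain, had 0.737 ± 0.207 CPM at 0 h and 2.92 ± 1.06 at 12 h (edgeR adjusted p = 0.00129).

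**Figure D5:**
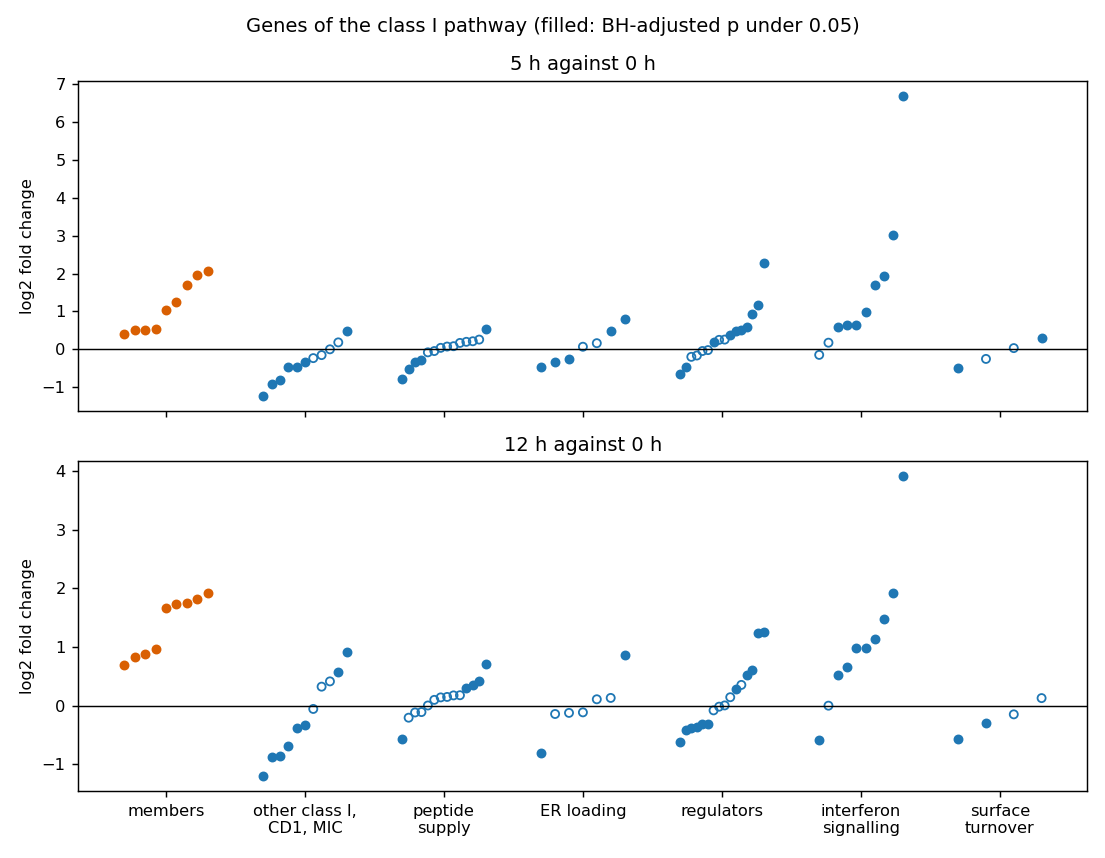
Log2 fold change at 5 h (upper panel) and 12 h (lower panel) against 0 h (y axis) for the 9 genes of the set and 6 lists of the class I pathway (x axis). Each point is 1 gene, ordered within its list, filled where the adjusted p was under 0.05 and open where it was not. The 9 orange points are all above 0, but these genes were chosen with both contrasts known, so their place and filling support nothing. The other lists hold points on both sides. The highest point at 5 h is IFNG, with 1, 0 and 2 counts at 0 h, whose fitted value depends on the prior count.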

How the data were processed

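Messenger RNA counts of 9 libraries (3 per group) were analysed. The authors deposited whole-number counts per Ensembl gene with no normalization, per the values, and a table of log2 values, which the values show to be log2 of 1 plus a count scaled by 1 factor in each library. The deposited log2 table, which holds the 12692 genes detected in every library, was used in 1 alternative. The submitters' processing notes name cutadapt, RSEM, DESeq2 and GRCh38.p13, without role, order or version. Because RSEM estimates counts, the whole numbers may be rounded estimates. For aligner, annotation release, read length and strand: not given in the sources used here.

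The 9 libraries entered 1 edgeR 4.0.16 quasi-likelihood fit in R 4.3.3 with TMM scaling and filterByExpr, which left 12036 genes, and Benjamini-Hochberg adjustment over these (called under 0.05). Unless stated, adjusted p-values, log2 fold changes and their standard errors (SE) come from this fit, and CPM means are ± SD with n = 3. The common biological coefficient of variation was 0.0887. Alternatives used DESeq2 1.42.0 and limma 3.58.1. Coordinates are 1-based from GENCODE release 29 (GRCh38), and 19543 of 19569 genes matched a symbol. The 9 genes and the lists were chosen with earlier results of these data known. Genes outside the set were named by rule: HLA-G, PSMB8, PSMB9, up to 3 called genes with the largest rise and fall per list and comparison, any called gene of a list with at most 2 called, and 3 close profiles. Some genes that the rule or the lists held are not reported here. Single cell type markers, CIITA, RFXAP, RFXANK, HLA-DRA and the antisense and overlapping genes were named after their values were seen. Replicate libraries differed by 2.95 to 9.39 times sampling noise (chi-square over degrees of freedom). Each counted as 1 replicate, although this spread does not show that the libraries came from separate cultures.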

Additional observations from a re-analysis of the deposited data

How the results depend on the processing

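The log2 fold changes of the 9 genes were recomputed with DESeq2's size factors, DESeq2's Wald test, no low-count filter, limma on the deposited log2 values, only the compared groups, the counts of the set's 4 heavy chains summed (an alternative chosen after seeing the data, in place of a planned wider sum whose values are left out), a replicate block, and each library left out. Of 339 such values, 336 kept their direction and their side of the threshold, 0 reversed and 3 lost their call. The summed setting counts only for the genes outside the sum. The 3 were the B2M step from 5 h to 12 h with limma on the log2 values (0.29), without 5 h replicate 1 (0.30) and without 5 h replicate 3 (0.25). All 9 genes were called higher at 5 h and 12 h against 0 h in each setting that gave their values. With 1 library left out, 2593 to 2717 genes were called higher at 5 h, and 20 to 22 genes of the 7 pathway lists. With the replicate block, 2989 genes were called higher and 2993 lower at 5 h, and 9 of the 9 genes higher, and the block changed no call of the 9. Deviations of same-numbered libraries correlated from -0.143 to 0.163, and those of differently numbered ones from -0.2 to 0.187, so the numbers were not taken as pairs. Between 5 h and 12 h the same-numbered values were 0.163, 0.107 and 0.012, and the others ran from -0.2 to 0.118. Pairing there was not tested. HLA-F, the heavy chain of the set with the fewest counts, had the widest errors. The split of reads among heavy chains could not be checked without alleles and reads.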
